A study of Sorghum bicolor with 14 samples.

Results

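Gene expression in the middle internode of the stem was compared in CSV24SS, a variety of sweet sorghum (Sorghum bicolor), between the milky stage (MS) of grain filling and booting (B), the stage before it in the series, when the panicle is still enclosed by the flag leaf sheath. All of these plants grew in a soil bed given nitrogen fertiliser, and were watered and weeded regularly. Total RNA of 4 samples was used, 2 for MS and 2 for B, out of 14 samples in 7 groups. The other groups are floral initiation (FI) and soft dough (SD) of the same soil bed, and pots left without water from the flag leaf stage on and sampled at booting at about 13% (D1), 7% (D2) or 2% (D3) soil moisture. A gene entered the comparison when its row carried a gene name and reached 1 FPKM in at least 1 of the 4 stage columns, which 18338 of 34755 rows did. FPKM are fragment counts divided by the length of the gene and by the size of the library, so levels of different genes can be set side by side per unit of length.

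The table holds 1 value per gene and stage, in which the authors had combined the 2 samples of a group. No difference given here can be set against a spread between samples, there was no test, and the words higher and lower describe 2 single values. The labels do not say whether the 2 samples of a group came from separate plants, and the table gives no read depth. Log2 changes were taken on FPKM + 1, MS minus B, a scale that understates changes of low genes. The threshold was a log2 change of 1 or more in size, called 2-fold here, and fold values are plain FPKM ratios. In such bulk tissue, fewer cells of a type and less RNA per cell cannot be told apart. The table names genes only by Sobic identifiers. Neither the table nor the annotation at hand pairs these with gene names or functions, so genes are described by their levels, their places on the chromosomes and their values in the other columns, and 4 are given by identifier.

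The stem of a sweet sorghum stops elongating around flowering. In the weeks that follow its storage parenchyma fills with sucrose while the grain draws on the same supply. Cell walls thicken after elongation, as cellulose and lignin are laid down. Booting comes before flowering and the milky stage after it. The values used here hold no measure of length, sugar or cell walls, so the state of the middle internode at either stage was not tested.

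At MS, 1400 genes (7.63% of the 18338) were at least 2-fold higher than at B and 1204 (6.57%) at least 2-fold lower, while 15734 lay within 2-fold. In either direction the share was 14.2%. The middle of the distribution was narrow, with quartiles of the log2 change at -0.35 and 0.33 and a median of -0.01. Its upper tail was the longer one. A log2 change of at least 2 was found for 388 genes higher and 266 lower, one of at least 3 for 136 and 86, and one of at least 4 for 51 and 19. Among the 1616 genes that reached 100 FPKM in MS or B, 8.48% were at least 2-fold higher and 7.98% at least 2-fold lower. With a pseudocount of 5 FPKM in place of 1, the counts over all genes were 683 higher and 538 lower.

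**Figure D1:**
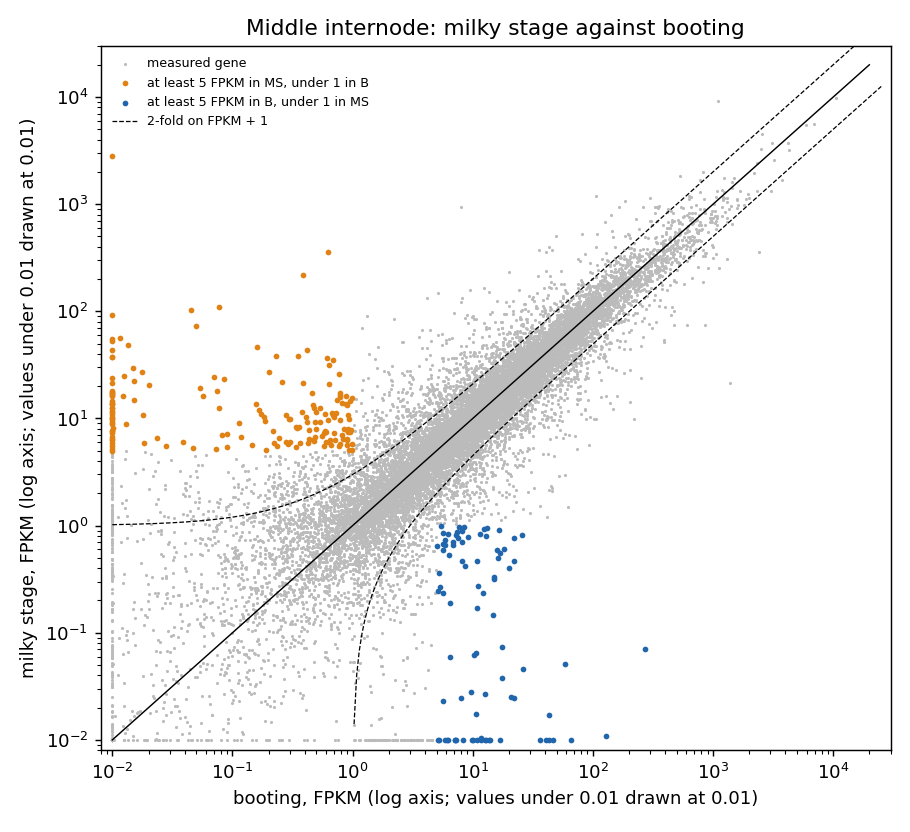
Each point is 1 gene, with its FPKM at the milky stage on the vertical axis and at booting on the horizontal axis, both logarithmic, and values under 0.01 drawn at 0.01. Dashed lines mark 2-fold on FPKM + 1, and coloured points are genes with at least 5 FPKM in 1 of the 2 stages and under 1 in the other. Most of the 18338 genes lie between the dashed lines, and 171 orange and 87 blue points lie outside them, some close to a line.

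The balance of the 2 directions is described by level, with genes grouped by their mean FPKM over the 4 stages. This mean contains the MS and B values compared, and FI and SD as well. Genes high at a single stage have a lower mean, so the balance in a group can follow from the grouping. Under 1 FPKM, 3.88% of 1495 genes were higher at MS and 9.10% lower. Between 1 and 5 FPKM the shares of 4768 genes were 8.24% higher and 7.63% lower, and between 5 and 20 FPKM those of 5959 genes were 7.89% and 6.29%. At 20 to 100 FPKM, 7.52% of 4748 genes were higher and 5.22% lower, and at 100 FPKM or more 8.92% of 1368 genes were higher and 5.92% lower. Lower genes outnumbered higher ones in the weakest group alone. Chosen instead by the higher of MS and B, genes at 100 FPKM or more were divided more evenly, at 8.48% higher and 7.98% lower.

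**Figure D2:**
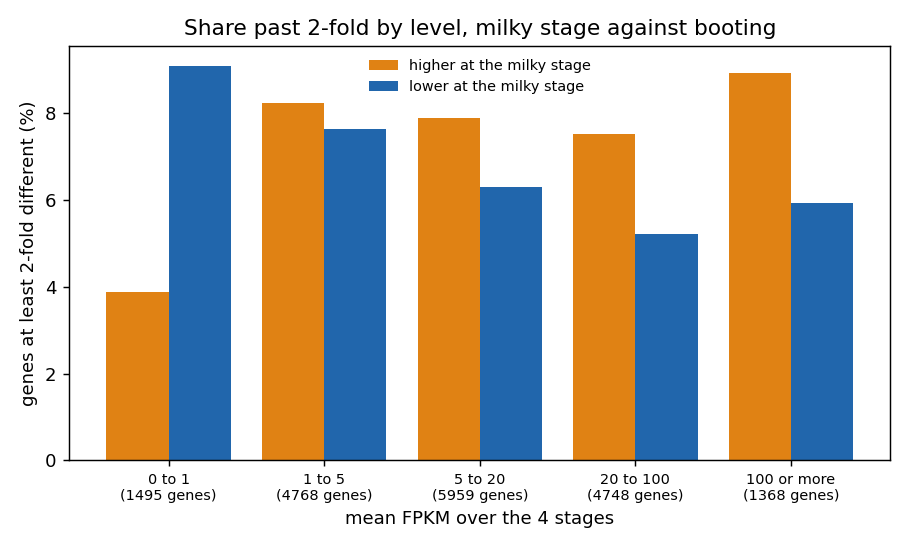
Bars give the share of genes, in percent, that were at least 2-fold higher (orange) or lower (blue) at the milky stage than at booting, by mean FPKM over the 4 stages. The blue bar is the taller one in the weakest group only, at 9.10% against 3.88%. The mean contains the 2 values compared, so the balance can follow from the grouping.

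Summed over the 1400 genes higher at MS, FPKM came to 82393 in MS and 21895 in B, which is 11.7% and 3.07% of the sum over all 18338 genes. In the 2 stages not used to choose them their part was 7.53% in FI and 12.2% in SD. The 1204 genes lower at MS made up 3.25% of the sum in MS and 10.1% in B, and 7.10% in FI and 3.59% in SD. The 1400 genes higher at MS had median levels of FI 8.68, B 2.21, MS 11.6 and SD 13.5 FPKM. A low B and a high MS are set by the choice of these genes. FI and SD did not enter the 2-fold call, though they can go along with B or MS. The 1204 genes lower at MS had median levels of FI 6.90, B 11.6, MS 2.67 and SD 2.94 FPKM, and their levels at SD were close to those at MS. Over all 18338 genes the 4 medians lay between 9.17 and 9.90 FPKM.

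Soft dough was set beside both stages for each gene. On the log2 scale the SD value was nearer to MS than to B for 1181 (84.4%) of the 1400 genes higher at MS, and it exceeded both MS and B for 735 of them. Among the 1204 genes lower at MS, SD was nearer to MS for 998 (82.9%) and below both for 518. Over all 18338 genes SD was nearer to MS for 61.9%, and FI for 49.8%. Most of the 18338 lay within 2-fold between MS and B, where being nearer can rest on a small difference. A contrast with all genes can thus follow from the choice of genes. Floral initiation was divided more evenly, being nearer to MS for 848 (60.6%) of the higher and 647 (53.7%) of the lower genes. Few genes went past B again by soft dough, as 45 of the higher genes were below both stages in SD and 59 of the lower genes above both.

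The stage of the highest and of the lowest value is given as a description, since choosing genes by a low or a high B favours B as an extreme. Of the 1400 genes higher at MS, 605 (43.2%) had their highest value in SD, 522 (37.3%) in MS and 273 (19.5%) in FI, and 1119 (79.9%) had their lowest in B. Among the 1204 genes lower at MS, 823 (68.4%) peaked in B and 348 (28.9%) in FI, while 512 (42.5%) were lowest in MS and 402 (33.4%) in SD. Over all 18338 genes the highest value fell in FI for 33.1%, in B for 23.4%, in MS for 17.8% and in SD for 25.7%, and the lowest in FI for 32.6%, in B for 24.7%, in MS for 19.1% and in SD for 23.6%.

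**Figure D3:**
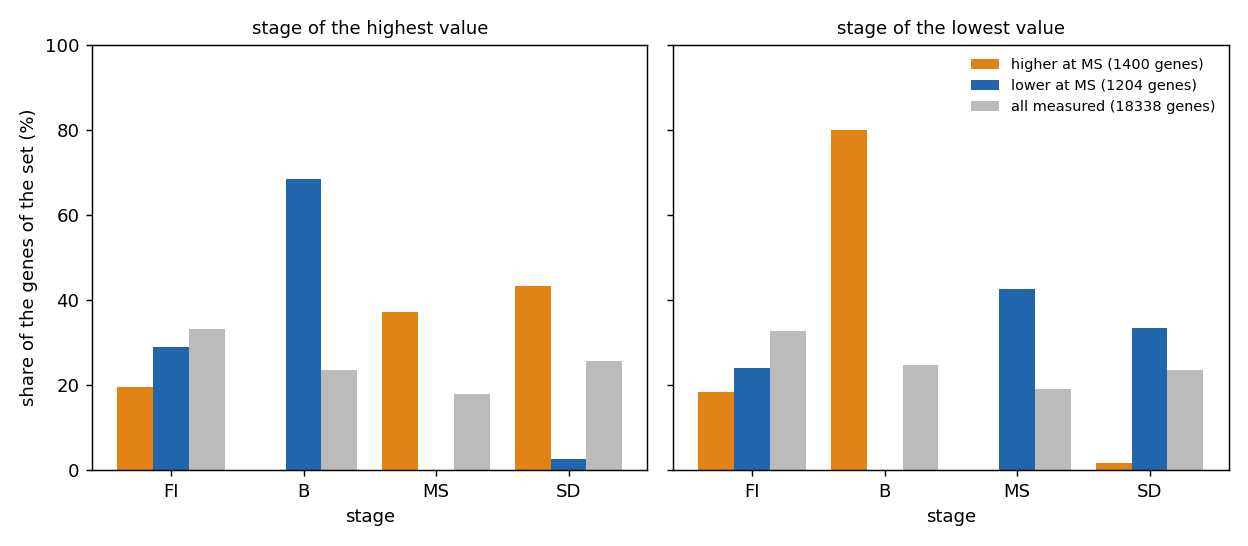
Share of genes, in percent, with their highest value (left) or lowest value (right) at each stage, for the genes at least 2-fold higher (orange) or lower (blue) at the milky stage and for all measured genes (grey). The lowest value falls in B for 79.9% of the orange set, and the highest in B for 68.4% of the blue set.

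Some genes were under 1 FPKM at 1 of the 2 stages and at 5 FPKM or more at the other. At least 5 FPKM in MS and under 1 FPKM in B was found for 171 genes. In B, 70 of them were under 0.1 FPKM, including 36 listed at exactly 0. The reverse, at least 5 FPKM in B and under 1 in MS, was found for 87 genes. In MS, 41 of them were under 0.1 FPKM, including 21 listed at 0. The remaining genes of both kinds lay from 0.1 to under 1 FPKM in the lower stage, where the error is unknown. The same measure was taken for the other pairs of stages. Between SD and MS, 17 genes were high in SD and under 1 FPKM in MS, and 14 the other way round. Between B and FI, 132 genes were high in B and under 1 FPKM in FI, and 511 the other way round. For MS and FI the counts were 91 high in MS and 407 high in FI, for SD and B 285 and 135, and for SD and FI 103 and 337.

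FI and SD did not enter this choice. Of the 171 genes high in MS and under 1 FPKM in B, 104 (60.8%) reached 5 FPKM in FI and 137 (80.1%) in SD, beside 66.6% and 62.8% of all 18338 genes. In FI 27 of them (15.8%) were under 1 FPKM and in SD 4 (2.34%), beside 7.83% and 11.6% of all genes. These genes were chosen by their B and MS values, with which FI and SD can go along. A likeness to all genes, or a contrast with them, can thus follow from the choice, and the shares are given as a description. The medians were FI 6.61, B 0.243, MS 10.3 and SD 10.6 FPKM. Among the 87 genes high in B and under 1 FPKM in MS, 59 (67.8%) were under 1 FPKM in FI and 71 (81.6%) in SD. The shares of all genes were 7.83% and 11.6%. In SD 0 of the 87 genes reached 5 FPKM. They were chosen by a low MS, so this contrast too can follow from the choice. Here the medians were FI 0.141, B 10.7, MS 0.189 and SD 0.156 FPKM.

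The 3 drought columns, from pots sampled at booting, were placed beside these genes. They come from a table taken as separately normalised, so levels are placed beside each other and no difference is formed. Of the 86 genes high in B and under 1 FPKM in MS that could be matched by name, 47 (54.7%) reached 5 FPKM in all 3 drought columns and 15 (17.4%) stayed under 1 FPKM in all 3. Of the 162 matched genes with the reverse pattern, 85 (52.5%) stayed under 1 FPKM in all 3 drought columns and 22 (13.6%) reached 5 FPKM in all 3. Among all 17760 matched genes, 58.7% reached 5 FPKM in all 3 and 11.9% stayed under 1 FPKM in all 3. The genes high in B were therefore near the shares of all genes in the drought columns, and the genes high in MS were under 1 FPKM there more often. Both sets were chosen by their B value, however, and the drought pots were also sampled at booting. Of all 18338 genes, not chosen in this way, 62.5% reached 5 FPKM in B and 14.3% were under 1 FPKM. A contrast with all genes can thus follow from the choice, and the shares are given as a description. The drought medians were 9.25, 7.93 and 8.18 FPKM in D1, D2 and D3 for the genes high in B, and 0.312, 0.307 and 0.563 FPKM for the genes high in MS. The booting stage and any other way in which the plants of these columns differed cannot be told apart.

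**Figure D4:**
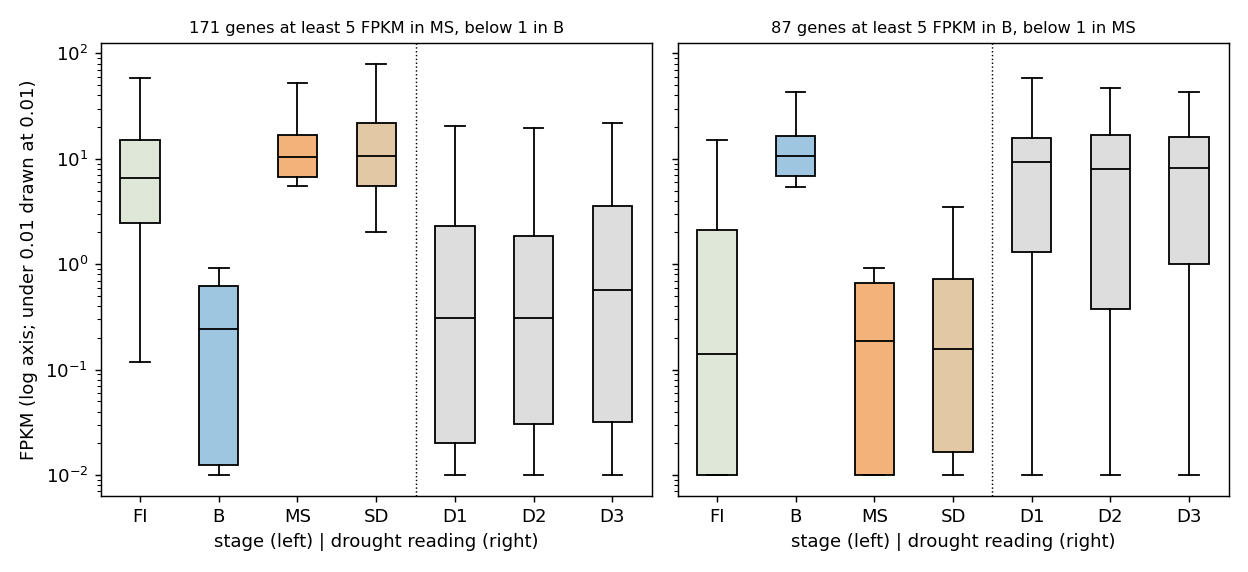
FPKM on a logarithmic axis by column for the 171 genes with at least 5 FPKM in MS and under 1 in B (left) and the 87 genes with the reverse (right), with boxes for the quartiles, a line for the median and whiskers from the 5th to the 95th percentile of genes. The MS and B boxes are set by the choice of genes. On the left the drought columns D1 to D3 have medians under 1 FPKM, and on the right medians between 7.93 and 9.25 FPKM, while the medians of FI and SD lie on the side of MS in both panels.

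Rows of 1 gene model that were above 0 in both stages and reached 5 FPKM in the higher were ranked by log2 change. The 4 genes with the largest changes, 2 in each direction, were all under 1 FPKM in the lower stage. Sobic.007G213800 (chromosome 7, 64257506 to 64258292) was at 358 FPKM in MS and 0.628 in B, a log2 change of 7.78. It also stood at 200 FPKM in FI and 572 in SD, and was between 0.513 and 0.773 FPKM in the 3 drought columns. Sobic.001G418600 (chromosome 1, 69932393 to 69935701) behaved differently, as it was low in FI too. Its stage levels were FI 0.906, B 0.383, MS 220 and SD 29.1 FPKM, so that MS was its peak, and it was between 5.67 and 31.4 FPKM in the drought columns.

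On the other side, Sobic.004G007300 (chromosome 4, 646026 to 651065) was at 0.0712 FPKM in MS and 270 in B, a log2 change of -7.98. It was at 0.175 FPKM in FI and 0.156 in SD, but at 257, 323 and 301 FPKM in D1, D2 and D3. Sobic.009G246000 (chromosome 9, 58162911 to 58165477) was at 0.0108 FPKM in MS and 128 in B, a log2 change of -7.00, and at 80.2, 94.0 and 78.0 FPKM in the drought columns. Both were therefore high in every booting column and near 0 in FI, MS and SD.

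Differences in FPKM itself were led by other genes, chosen after their values were seen. The largest gain was that of a gene on chromosome 1, at 9283 FPKM in MS and 1095 in B, 8.48-fold higher. Its levels were 2414 FPKM in FI and 5598 in SD, and in the drought columns they varied widely, at 236 in D1, 4814 in D2 and 1542 in D3. Next came a gene on chromosome 8, whose row shares its locus with another row, at 2830 FPKM in MS and listed at 0 in both B and FI. It stood at 1529 FPKM in SD and, unlike most genes of its kind, at 1435 FPKM or more in all 3 drought columns. The booting column of the soil bed and the drought columns therefore differed for this gene.

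The largest loss was in a row of 3 gene models on chromosome 6, also on a shared locus, at 355 FPKM in MS and 2409 in B, 6.78-fold lower. It was at 205 FPKM in FI and 166 in SD, so that B stood apart from the other 3 stages. A gene on chromosome 8 followed, at 1676 FPKM in MS and 3718 in B, 2.22-fold lower, and then one on chromosome 10, at 1318 in MS and 3053 in B, 2.32-fold lower. Both were abundant at all 4 stages, and lower still in SD, at 1169 and 1072 FPKM.

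Genes that differed followed each other in chromosome order more often than their share of the genes compared. Unnamed loci, genes under 1 FPKM at all 4 stages and genes on a shared locus were left out of this order. Neighbours in it can therefore have other genes between them. Over the 15304 genes with a locus of their own, 7.84% were at least 2-fold higher at MS. The next of these genes along the chromosome was also higher in 13.7% of cases. For genes at least 2-fold lower the values were 6.59% and 11.4%. Runs of 3 or more genes in this order numbered 22 for higher and 18 for lower, and no run was longer than 4. The one run of 4 lower genes lay on chromosome 6 (57419856 to 57435652), where levels were 26.3, 16.1, 354 and 4.08 FPKM in MS and 89.5, 128, 874 and 29.6 in B, in order along the chromosome. All 4 had been below 46 FPKM in FI, so that B was the high stage of each. In 1 of the 3 runs of 4 higher genes, on chromosome 9 (45636126 to 45755567), levels were 3.73, 14.4, 16.6 and 3.52 FPKM in MS and all 4 were under 1 FPKM in B. In the other 2 such runs, on chromosome 2 (60821113 to 60923918) and chromosome 7 (4504517 to 4551607), levels were between 2.67 and 50.7 FPKM in MS and between 0.361 and 22.04 in B.

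Chromosomes differed somewhat in their share. The share of genes at least 2-fold higher at MS was between 6.22% on chromosome 2 and 10.2% on chromosome 8, and that of genes lower between 5.40% on chromosome 7 and 8.97% on chromosome 5. Chromosome 6 held 14 of the 87 genes that were high in B and under 1 FPKM in MS, on 1606 of the 18338 measured genes, and 18 of the 171 with the reverse pattern. Chromosome 8, with 939 measured genes, held 9 and 16 of them, for its size more of both kinds than chromosome 6. Chromosome 1, with 3363 measured genes, held 18 and 41.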

How the data were processed

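FPKM were deposited by the authors, per the file headers, with a single value for each gene and group, in a table for the 4 stages and another for the 3 drought readings. Not given in the sources used here are how samples of a group were merged and which genome build was used. The library kit was a stranded one for total RNA, per the labels' protocols. Named in the submitters' processing notes, with no role, are HISAT2 2.0.5, Bowtie2 2.2.9, Cuffdiff and cutadapt 1.8.1. Coordinates are those of the table. FPKM keep no read counts, so the depth per sample, and with it the precision, is unknown, as is how reads of overlapping loci were shared out.

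Of 34755 rows in the stage table, 2003 had no gene name and 14414 named rows stayed under 1 FPKM. Of the 18338 measured rows, 1136 held several gene models and 3034 shared a locus with another row. The drought table (32726 rows) was matched by names found once in it and taken as normalised separately. Unused columns of values numbered 0. The planned limma test needs a value per sample and could not be applied, so the fallback without a test was used. Genes were named by their change (the largest changes among rows of 1 gene model, above 0 in both stages and at 5 FPKM or more in the higher, and again among rows at 100 FPKM or more), which gave 2 genes each way, the same under both levels. The plan also held gene lists, 52 of them to be filled by gene descriptions and others by identifier. No source used here pairs the identifiers with names or functions, so the lists had 0 members and list results are not given. The members and rules were chosen with earlier results of these data known. Code was tested on simulated data. Alternatives changed the pseudocount, the filter, the scaling and the rows used. Tools were numpy 2.4.6, pandas 2.3.3 and matplotlib 3.10.9 under Python 3.11.15.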

Additional observations from a re-analysis of the deposited data

How the results depend on the processing

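With 1 value per group, leaving out a sample could not be run. No paired analysis was possible because the table gives no value per sample. The counts of 1400 genes higher and 1204 lower at MS became 2127 and 1805 with a pseudocount of 0.1 FPKM, 683 and 538 with one of 5 FPKM, and 949 and 704 when the 4 stages had to average 5 FPKM or more, a filter that left fewer genes. At a log2 change of at least 2, a threshold chosen after seeing the data, they were 388 and 266. Median ratio rescaling gave 1438 and 1171, quantile normalization 1366 and 1175, and rows of 1 gene model with their own locus 1140 and 956. Without the genes at 5 FPKM or more in 1 of the 2 stages and under 1 FPKM in the other, also chosen after seeing the data, 1229 and 1117 were left. Higher calls made up between 52.4% and 59.3% of all calls in these settings. The 4 named genes kept their direction and stayed past 2-fold in all of the planned settings that were run. They had been chosen for the largest log2 changes, so this was to be foreseen and says nothing about other genes. Medians of gene lists were not run, as the lists had no members. Since depth is unknown, values under 1 FPKM carry an error that cannot be stated.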

Other observations

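Loci without a gene name were left out of the comparison. Of 1044 such rows that reached 1 FPKM in a stage, 181 (17.3%) were at least 2-fold higher at MS and 152 (14.6%) at least 2-fold lower, against 7.63% and 6.57% of the named genes.

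The genes high in 1 of the 2 stages and under 1 FPKM in the other were also counted at a higher bar, chosen after seeing the data. At 10 FPKM in place of 5, 87 genes were high in MS and under 1 FPKM in B, of which 2 were under 1 FPKM in SD, and 47 were high in B and under 1 FPKM in MS, of which 43 were under 1 FPKM in SD. Of the 46 matched genes of the second kind, 23 (50.0%) reached 10 FPKM in all 3 drought columns, near the 44.5% of all 17760 matched genes. Of the 81 matched genes of the first kind, 45 (55.6%) stayed under 1 FPKM in all 3, against 11.9% of all matched genes. Both kinds were chosen by their B value, so a contrast with all genes in these booting columns can follow from the choice.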
